A study of Mus musculus with 20 samples.

Results

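Olfactory receptor genes were read out in the testis and in spermatocytes of wild-type C57Bl/6J mice, and 38 of the 1122 olfactory receptor rows in the RNA count table, which held 23366 gene rows in all, had at least 20 reads summed over 4 spermatocyte libraries. The 38 were chosen by that count, the sum over both leptotene/zygotene and both pachytene libraries, so their reads in those libraries are given below as a description with no test. The 5 stages were whole testis at day 1, day 3 and day 7 after birth, and leptotene/zygotene and pachytene spermatocytes taken from adult testes at about 70 to 80 days, with 2 libraries per stage and 10 in all. No group carried a mutation or a treatment, and the labels call the libraries of a stage biological replicates. The spermatocytes were enriched by sedimentation at unit gravity (STA-PUT, which sorts cells by diameter and density). By microscopy the labels put the pachytene fraction at about 90% pure and the leptotene/zygotene fraction at over 90%, and they report no somatic cells in either. A spermatocyte fraction is a mixture sorted by size, and in such bulk samples fewer cells of a type and less RNA per cell cannot be told apart.

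Olfactory receptors are G-protein-coupled receptors that are best known from the sensory neurons of the nose, where each neuron uses a single receptor allele out of the largest gene family in the mouse. There an odorant-bound receptor activates the G protein Golf (Gnal), which stimulates the adenylyl cyclase Adcy3, and the cAMP made opens a cyclic nucleotide-gated channel built around Cnga2. A few receptors of the family are also transcribed in male germ cells, and some have been linked with chemical responses of sperm, such as Olfr16 (also called MOR23) of the mouse. Class I receptors are the older, fish-like branch of the family and class II the larger, land-vertebrate branch.

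Both leptotene/zygotene libraries went against their label in a marker check. Both pachytene libraries did so to a lesser degree, by their spermatid markers. Markers of spermatids, the haploid cells that follow meiosis, such as Prm2 and Tnp2, summed to 14366 and 9383 CPM in the pachytene libraries and to 98703 and 98466 CPM in the leptotene/zygotene libraries, where CPM is a gene's reads per scaled library size. In whole testis of the first week, which has no spermatids, the same 20 markers summed to 53.9 and 56.5 CPM at day 1, to 6.96 and 46.6 CPM at day 3 and to 9.43 and 8.85 CPM at day 7, where 2 of them were at 0. Of 21 meiotic markers 17 rose and 1 fell in leptotene/zygotene against day 7 (edgeR, adjusted p under 0.05). Their sum was 14247 and 16415 CPM in pachytene and 17012 and 19522 CPM in leptotene/zygotene libraries, against 368 and 345 CPM at day 7, and in both fractions most of it came from Ldhc, Hspa2 and Pgk2. Dmc1, the recombinase of early meiotic prophase, had 5.29 and 1.79 CPM in pachytene and 9.73 and 4.91 CPM in leptotene/zygotene libraries, against 9.93 and 10.1 CPM at day 7. Tex12, a synaptonemal complex protein, was the marker that fell, with 18.1 and 10.6 CPM in pachytene and 2.43 and 1.10 CPM in leptotene/zygotene libraries, against 3.53 and 4.36 CPM at day 7. In pachytene against leptotene/zygotene 5 of the 21 meiotic markers rose, 1 fell and 15 did not pass (edgeR, adjusted p under 0.05). Of all genes tested 9.03% rose and 13.2% fell there. Replicate 1 of both spermatocyte stages also stood apart, with 63.3% (leptotene/zygotene) and 64.5% (pachytene) of reads in the table's categories for reads not assigned to a gene, against 45.4% and 49.0% in replicate 2. Reads assigned to genes ranged between 3597360 in leptotene/zygotene replicate 1 and 22181395 in day 3 replicate 1, so 1 read was worth 0.486 CPM in the shallowest library and 0.0333 CPM in the deepest.

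Most of the family was not read in spermatocytes. Of the 1122 receptor rows, 872 had no spermatocyte read and 212 had between 1 and 19 reads. The 38 detected receptors took 3248 of the family's 4115 spermatocyte reads, a share of 78.9%, and their median was 40 reads. Leptotene/zygotene replicate 2, the deepest of the 4 libraries, gave 59.9% of those reads. A read was found in all 4 spermatocyte libraries for 32 receptors, in 3 libraries for 5 and in 2 libraries for 1 (Olfr183, seen only in replicate 2 of each stage, with 6 pachytene and 38 leptotene/zygotene reads). The members nearest the limit were Olfr874 with 20 reads and Olfr20 and Olfr976 with 21 each, and the rows just outside it were Olfr732, Olfr788 and Olfr930 with 19 each. Counting from pachytene libraries alone, 8 receptors had 20 or more reads: Olfr112, Olfr127, Olfr1344, Olfr1508, Olfr31, Olfr316, Olfr701 and Olfr761. Counting from replicate 2 of both stages alone, 26 receptors had.

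Reads were concentrated in few receptors, and the 10 with the highest levels held 71.3% of the detected receptors' reads. CPM values are not divided by gene length, so each receptor is compared below with itself across stages and not with other receptors. Olfr701, whose ligand is not named in the sources used here, gave 1029 spermatocyte reads, the most of any receptor. It stood at 33.0 and 21.2 CPM in pachytene and at 51.6 and 60.8 CPM in leptotene/zygotene libraries, and had 4 reads in the 6 testis libraries together. Olfr112, a class II receptor of the MOR218 family on chromosome 17, had 6.31 and 7.43 CPM in pachytene and 24.3 and 18.1 CPM in leptotene/zygotene libraries. For both receptors the 2 stages did not overlap. Olfr733, on chromosome 14, stood at 1.83 and 1.38 CPM in pachytene and at 23.8 and 20.3 CPM in leptotene/zygotene libraries. Olfr127, next to other MOR218 receptors on chromosome 17, had 2.44 and 1.51 CPM in pachytene and 18.0 and 10.8 CPM in leptotene/zygotene libraries. Its neighbour Olfr128 had 2.65 and 0.551 CPM in pachytene and 8.76 and 7.11 CPM in leptotene/zygotene libraries, and Olfr761 beside them 3.05 and 1.10 CPM in pachytene against 16.5 and 8.92 CPM in leptotene/zygotene libraries. These receptors shared 1 pattern, with both pachytene libraries below both leptotene/zygotene libraries. Olfr303 and Olfr697 on chromosome 7 and Olfr1508 on chromosome 14 followed it too, while Olfr31, at 3.87 and 1.93 CPM in pachytene and 3.89 and 2.40 CPM in leptotene/zygotene libraries, had stages that overlapped.

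**Figure D1:**
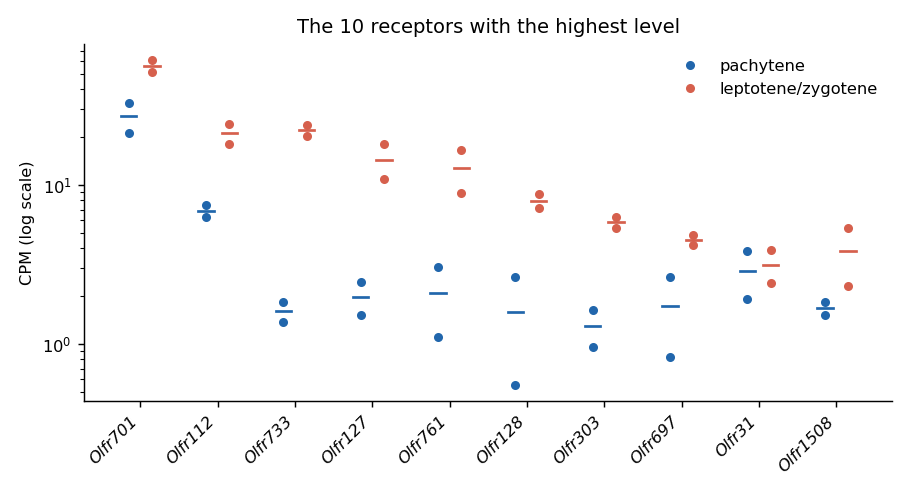
CPM on a log scale for the 10 receptors with the highest mean level over both spermatocyte stages, with pachytene libraries left of leptotene/zygotene libraries, 1 point per library and a bar at the mean of 2. The stages overlap for Olfr31, and for the other receptors shown both pachytene points lie below both leptotene/zygotene points.

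Sequences upstream of the annotated starts are shown for 4 of these receptors, Olfr701 and Olfr733 because they had large read counts and unequal pachytene levels, and the neighbours Olfr127 and Olfr128 because they had the same pattern across libraries. Each runs 250 bases before and 50 bases after the RefSeq start in build GRCm38.p6, 5′ to 3′ on the gene's strand, and capitals mark TATAAA or its complement TTTATA. The windows are chr7:106813879-106814178 (plus strand), chr14:50299281-50299580 (minus strand), chr17:37903298-37903597 (plus strand) and chr17:37923318-37923617 (plus strand). The reads were mapped by the authors to another build (mm9), and the starts used in these cells were not measured.
Olfr701: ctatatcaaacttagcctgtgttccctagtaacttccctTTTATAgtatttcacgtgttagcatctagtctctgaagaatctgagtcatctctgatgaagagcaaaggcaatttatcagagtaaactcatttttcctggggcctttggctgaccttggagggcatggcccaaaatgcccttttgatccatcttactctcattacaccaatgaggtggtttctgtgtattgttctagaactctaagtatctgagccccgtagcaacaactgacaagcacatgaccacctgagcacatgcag
Olfr733: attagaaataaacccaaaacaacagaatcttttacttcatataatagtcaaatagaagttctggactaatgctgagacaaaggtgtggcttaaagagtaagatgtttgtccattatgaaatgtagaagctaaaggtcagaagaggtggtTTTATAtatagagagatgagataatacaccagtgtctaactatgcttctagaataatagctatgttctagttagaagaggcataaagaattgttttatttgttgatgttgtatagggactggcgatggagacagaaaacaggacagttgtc
Olfr127: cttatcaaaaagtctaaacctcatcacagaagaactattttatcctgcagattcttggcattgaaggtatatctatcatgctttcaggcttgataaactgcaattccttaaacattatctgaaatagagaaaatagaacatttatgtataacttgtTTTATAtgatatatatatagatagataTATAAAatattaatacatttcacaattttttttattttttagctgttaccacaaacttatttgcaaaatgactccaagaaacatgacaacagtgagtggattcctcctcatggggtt
Olfr128: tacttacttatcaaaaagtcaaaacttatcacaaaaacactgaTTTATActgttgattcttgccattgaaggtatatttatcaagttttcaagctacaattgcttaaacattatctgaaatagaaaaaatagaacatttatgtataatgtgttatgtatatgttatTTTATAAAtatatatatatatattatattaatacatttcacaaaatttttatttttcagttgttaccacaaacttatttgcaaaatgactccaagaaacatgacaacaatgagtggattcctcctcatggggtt
Olfr127 and Olfr128 matched at 259 of 311 aligned columns, or 83.3%, where the median over 406 pairs of such windows of the detected receptors was 51.1%. In both the annotated start falls on an ATG. The 50 bases after it may therefore be coding sequence, and the window need not be a promoter. In Olfr128 a forward and a reverse match overlap in the run TTTATAAA. Windows of this kind, 300 bases each and called promoters here, were listed for 28 of the 38 receptors (29 promoters). On either strand, TATAAA was present in 48.3% of them, in 40.7% of the promoters of other receptors and in 13.6% of all promoters. The homeodomain core TAATTA was present in 13.8% of the detected receptors' promoters, 18.8% of other receptors' and 5.29% of all, and the Myb motif TAACNG in 20.7%, 31.8% and 23.3%. The full cAMP response element TGACGTCA was in none of the 29, in 0.111% of other receptor promoters and in 1.79% of all. Its core TGACG, which every full element also contains, was in 3.45%, 5.65% and 20.8%.

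Across the 5 stages the summed level of the 38 receptors was low in the young testis and higher in both spermatocyte fractions. Day 1 libraries held 2.22 and 2.33 CPM, day 3 libraries 1.83 and 2.28 CPM, day 7 libraries 1.93 and 2.95 CPM, leptotene/zygotene libraries 229 and 195 CPM and pachytene libraries 83.8 and 58.0 CPM. The means were 2.27 ± 0.0784, 2.06 ± 0.316, 2.44 ± 0.720, 212 ± 24.3 and 70.9 ± 18.3 CPM in that order (SD, n = 2 each). Without Olfr701 the summed level was 156 ± 30.8 CPM in leptotene/zygotene and 43.8 ± 9.98 CPM in pachytene libraries. Since the rule picked receptors for their spermatocyte reads, the step between day 7 and the spermatocyte stages is fixed in part by the choice. The whole family, chosen without any threshold, held 16.1 and 16.2 CPM in day 1, 12.1 and 14.4 CPM in day 3 and 16.5 and 16.6 CPM in day 7 libraries. It had 292 and 242 CPM in leptotene/zygotene and 100.1 and 83.2 CPM in pachytene libraries. The size of the step depended on the scaling: the family's leptotene/zygotene mean was 16.1 times its day 7 mean with the trimmed-mean factors used here, 6.25 times with plain library sizes, 20.7 times with median-ratio and 13.0 times with upper-quartile factors. With plain library sizes the 38 receptors had a leptotene/zygotene mean of 113 CPM in place of 212. In the family sum both libraries of each stage lay on 1 side of those of the stage before it. With 2 libraries against 2, an exact two-sided permutation test cannot go below p = 0.333, the value found in all 4 comparisons of neighbouring stages. The 1084 other receptor rows summed to 14.1 ± 0.613 CPM at day 7, 55.2 ± 10.7 CPM in leptotene/zygotene and 20.7 ± 6.30 CPM in pachytene libraries (SD, n = 2 each).

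**Figure D2:**
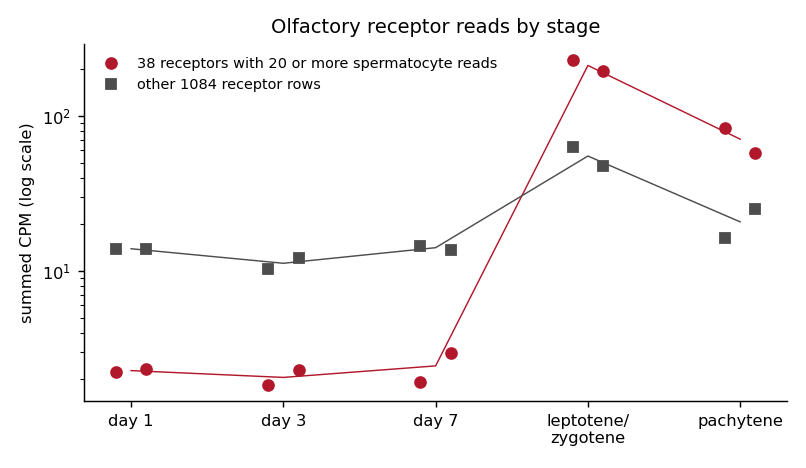
Summed CPM (log scale) of the 38 detected receptors and of the other 1084 receptor rows in each of the 10 libraries, by stage, with lines through the stage means. The 38 receptors lie between 1.83 and 2.95 CPM in testis and between 58.0 and 229 CPM in the spermatocyte fractions.

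In the testis of the first week the detected receptors had few or no reads, apart from 3 of them. Of the 38, 19 had no read in the 6 testis libraries together, while among all rows with 20 to 1029 spermatocyte reads, the range of the receptors, 2.89% had none. Among the 1084 other receptor rows 85.2% had none. A count of 0 allows up to 3 reads, which is 0.0999 CPM in the deepest testis library and 0.370 CPM in the shallowest, for counting error only. A further 16 receptors had between 1 and 5 testis reads, 9 of them with 1 read. The remaining 3 were Olfr1372-ps1, Olfr78 and Olfr316. Olfr1372-ps1, listed by RefSeq as a transcribed pseudogene of the MOR256 family, was read in every library. Day 1 libraries gave it 5 and 14 reads, day 3 libraries 41 and 10, day 7 libraries 15 and 24, leptotene/zygotene libraries 2 and 14 and pachytene libraries 3 and 3. These are 0.616 and 1.21 CPM (day 1), 1.37 and 0.814 CPM (day 3), 0.828 and 1.47 CPM (day 7), 0.973 and 1.40 CPM (leptotene/zygotene) and 0.610 and 0.413 CPM (pachytene). Olfr78, a class I receptor known for its use in the carotid body and vascular smooth muscle, was also read in every library. Its levels were 0.863 and 0.345 CPM (day 1), 0.300 and 1.06 CPM (day 3), 0.552 and 0.983 CPM (day 7), 2.43 and 0.601 CPM (leptotene/zygotene) and 1.42 and 0.551 CPM (pachytene). Its stages overlapped throughout. Olfr316 had no read in 3 testis libraries and 1 in another, and 6 and 4 reads in the 2 day 7 libraries.

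Tests between testis stages are given for Olfr1372-ps1 and Olfr78, and neither of them passed. In edgeR's quasi-likelihood test with Benjamini-Hochberg adjustment, 0% of 16872 genes passed in day 3 against day 1 testis, and 1097 had an unadjusted p under 0.05. DESeq2 called 79 genes there. In day 7 against day 3 testis, 252 genes passed, or 1.49%. Of the 38 receptors 23 passed the filter on low counts. Of these, 20 had between 0 and 4 testis reads, 11 of them 0, and passed it through their spermatocyte reads, so nothing is read from their testis tests. Olfr316, with 10 reads at day 7 and 0 at day 3, also passed the filter through its spermatocyte reads. Nothing is read from its testis tests either. For Olfr1372-ps1 and Olfr78 neither comparison passed by edgeR or by DESeq2. Their unadjusted p-values in day 3 against day 1 were 0.640 and 0.936 by edgeR. In day 7 against day 3 the log2 fold change of Olfr1372-ps1 was 0.03 ± 0.51 (SE), with an unadjusted p of 0.962 by edgeR. For Olfr78 it was 0.32 ± 0.80 (SE), with an adjusted p of 0.926 by edgeR. The most read receptor row of the testis was not among the 38. Olfr1033 had 473 testis and 9 spermatocyte reads, Olfr558 had 87 testis and 8 spermatocyte reads, and Olfr920 had 70 testis and 4 spermatocyte reads.

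**Figure D3:**
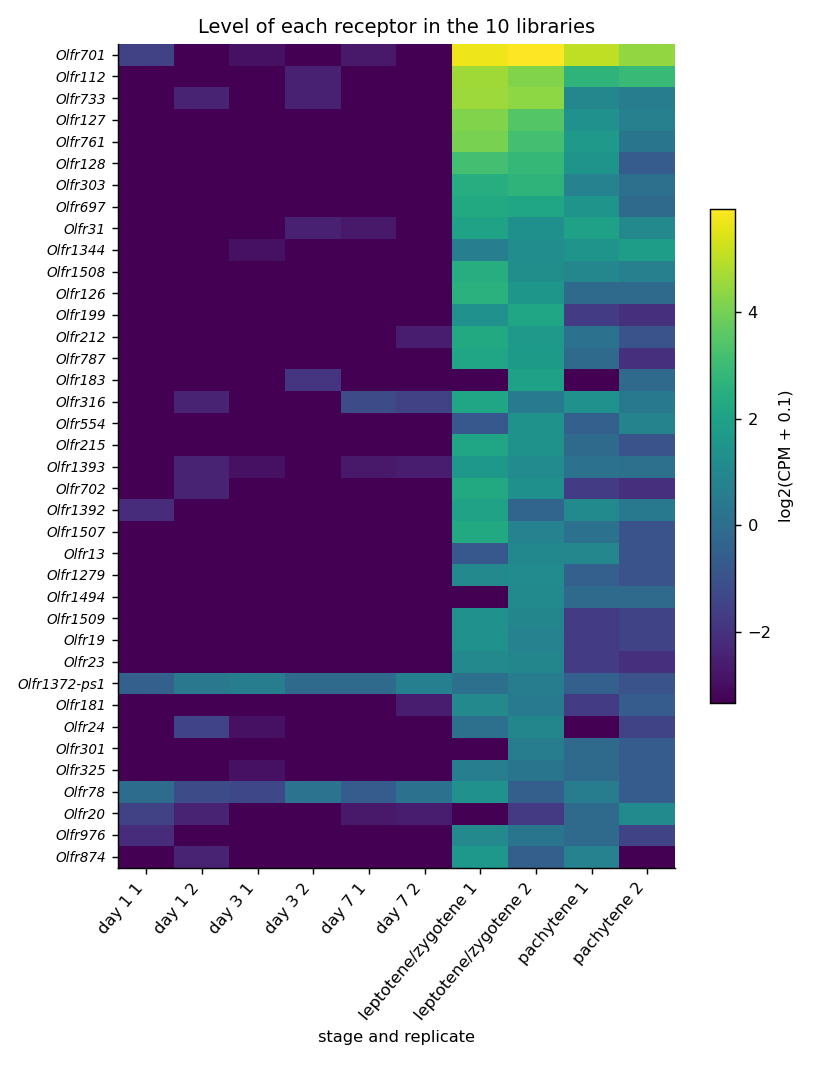
Level of each of the 38 receptors in the 10 libraries as log2(CPM + 0.1), with rows in the order of their spermatocyte reads and columns by stage. Olfr1372-ps1 and Olfr78 are the rows with colour in all 6 testis columns, and Olfr701 has the highest value in each spermatocyte column.

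Against day 7 testis the individual receptors' levels in the leptotene/zygotene libraries are given as bounds, because 29 of the 38 had no day 7 read. Taking 3 reads over both day 7 libraries as the floor, those 29 were at least 8.04-fold to at least 253-fold higher in leptotene/zygotene libraries, with a median bound of 26.3-fold. In pachytene libraries, set against the same day 7 libraries, the bounds ran between 1.58-fold and 78.8-fold, with a median of 9.33-fold. Olfr701 had 713 leptotene/zygotene reads and 1 read at day 7, a ratio of 2038 with an exact 95% interval between 365 and 80615. For Olfr1372-ps1 the ratio of leptotene/zygotene to day 7 was 1.17 (95% interval 0.612 to 2.15) and that of pachytene to day 7 was 0.435 (0.150 to 1.03). For Olfr78 these ratios were 1.21 (0.539 to 2.53) for leptotene/zygotene and 1.20 (0.533 to 2.50) for pachytene, and all 4 intervals include 1. The intervals cover counting error only. Across all genes tested, 78.5% passed in leptotene/zygotene against day 7, and since the rule used these libraries nothing is read from the receptors' ratios beyond their size.

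Pachytene levels were lower than leptotene/zygotene levels for most of the detected receptors. The pachytene mean, with both libraries weighted alike, was lower for 36 of the 38 and higher for 2. No share over all rows was set beside this count. By reads pooled over libraries, Olfr31 and Olfr1392, lower by their means, had ratios above 1 (1.02 and 1.25). Both pachytene libraries lay below both leptotene/zygotene libraries for 26 receptors, where 30.2% of all rows with at least 20 spermatocyte reads did so. Both lay above for 2 receptors, Olfr1344 and Olfr20, against 22.4% of all such rows, and 10 receptors overlapped. The median log2 ratio of pachytene to leptotene/zygotene was -1.81 over the 38 receptors and -0.11 over all rows with at least 20 reads. The rule summed reads over both stages, with most of them from leptotene/zygotene replicate 2, so a receptor high there was more likely to be picked, and nothing is read from these counts beyond the values.

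The replicate-1 libraries of both spermatocyte stages deviated in the same direction from their replicate-2 libraries, with a correlation of 0.746 across genes between the 2 differences. For the other pairs of stages it lay between -0.153 and 0.00471. Ratios were therefore taken within each number as well. Within replicate 1, 31 receptors were lower in pachytene, 6 higher and 1 equal, which is 81.6% lower against 47.1% of all rows with at least 20 reads. Within replicate 2, 35 were lower and 3 higher, which is 92.1% lower against 59.9%. In both numbers 30 receptors were lower in pachytene, against 41.7% of all such rows, and 2 were higher. The median log2 ratio of the 38 was -1.67 within replicate 1 and -2.10 within replicate 2. Spermatid markers moved alongside: 15 of 20 fell and none rose in pachytene against leptotene/zygotene (edgeR, adjusted p under 0.05), and their sum was 14366 and 9383 CPM in pachytene against 98703 and 98466 CPM in leptotene/zygotene libraries. The part of those cells' RNA in the receptor levels was not tested.

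**Figure D4:**
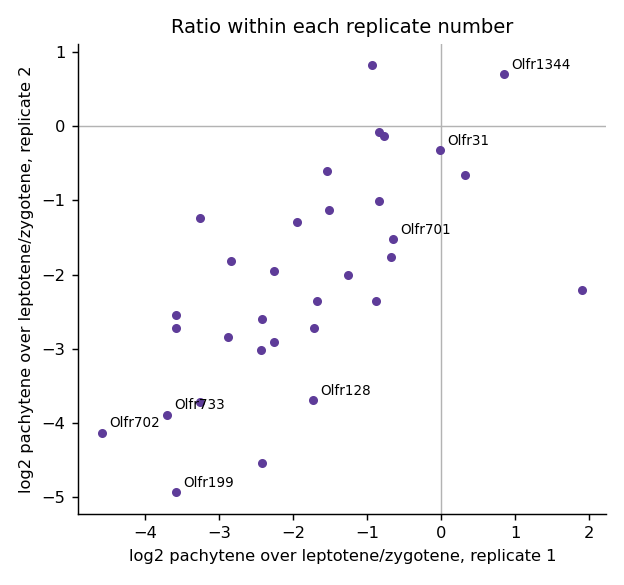
Log2 ratio of pachytene to leptotene/zygotene CPM within replicate 1 (horizontal) and within replicate 2 (vertical), 1 point per receptor, for the 32 receptors with a read in all 4 libraries. Of these, 28 lie below 0 on both axes and 1, Olfr1344, lies above 0 on both.

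The sizes of the pachytene difference varied widely among receptors. Olfr733 had 19 pachytene and 252 leptotene/zygotene reads, and the ratio of its pachytene to its leptotene/zygotene level, pooled over libraries, was 0.0745 (exact 95% interval 0.0441 to 0.119). Olfr701 had 316 pachytene and 713 leptotene/zygotene reads and a ratio of 0.438 (0.382 to 0.501). These intervals cover counting error only, not the spread between libraries. The lowest ratios rested on few pachytene reads. Olfr702, the direct neighbour of Olfr701, had 1 and 1 pachytene reads and 10 and 24 leptotene/zygotene reads, a ratio of 0.0581 (0.00677 to 0.227). Olfr199 had 1 and 1 pachytene reads and 5 and 42 leptotene/zygotene reads, a ratio of 0.0421 (0.00495 to 0.161). Olfr23 had 1 and 1 pachytene reads and 4 and 18 leptotene/zygotene reads, and Olfr24 had 0 and 2 pachytene reads and 2 and 18 leptotene/zygotene reads. The ratios were 0.0898 (0.0102 to 0.365) for Olfr23 and 0.0988 (0.0112 to 0.407) for Olfr24.

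Only Olfr1344 and Olfr20 were higher in both pachytene libraries. Olfr1344, the single MOR124 receptor of the table, had 2.65 and 3.58 CPM in pachytene and 1.46 and 2.20 CPM in leptotene/zygotene libraries, a pooled ratio of 1.54 whose counting interval (0.910 to 2.66) includes 1. Olfr20 had 4 and 15 reads in pachytene and 0 and 2 in leptotene/zygotene libraries, a pooled ratio of 9.39 (2.27 to 83.1). In the annotation Olfr20 lies beside Spata22, a gene needed for meiotic recombination. Spata22 stood at 20.6 and 21.6 CPM in pachytene and 3.89 and 2.30 CPM in leptotene/zygotene libraries, so neighbour and receptor were both higher in pachytene. Whether reads of Spata22 transcripts were counted to Olfr20 was not tested.

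The detected receptors were unevenly placed in the genome. Chromosome 2 holds 287 receptor rows and gave 1 detected receptor, Olfr1279. Chromosome 7 gave 8 of 236, chromosome 11 gave 7 of 81, chromosome 17 gave 5 of 50, chromosome 14 gave 5 of 39 and chromosome 16 gave 4 of 37. Chromosomes 9 and 6 gave 3 each, of 135 and 27 rows, and chromosomes 10 and 19 gave 1 each, of 65 and 61. The remaining 7 chromosomes with receptor rows, X among them with 6 rows, gave none. Of the receptor rows 1105, or 98.5%, were matched by name to the annotation, all 38 detected ones included.

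**Figure D5:**
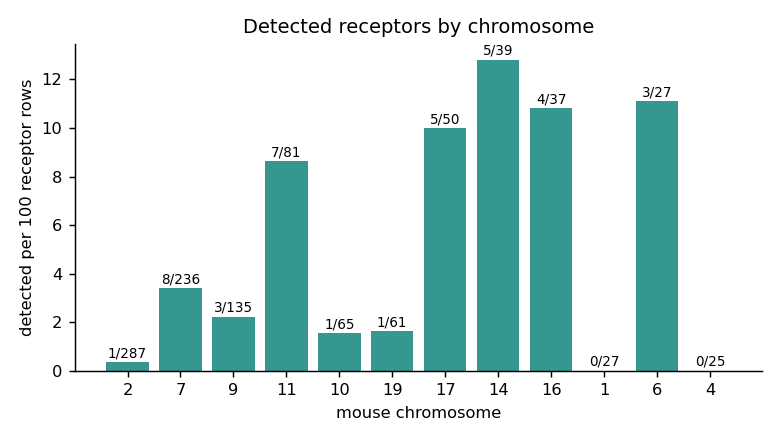
Detected receptors per 100 receptor rows on each mouse chromosome with at least 20 receptor rows, with the counts of detected and all receptor rows above each bar. Chromosome 14 has the highest share, with 5 of 39, and chromosome 2, with 1 of 287, the lowest above 0.

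Several detected receptors were neighbours with no undetected receptor between them. The longest run was Olfr126, Olfr127, Olfr128 and Olfr761 on chromosome 17. With Olfr112 on the same chromosome they make up 5 of the 10 rows of the MOR218 family, and all 5 had both pachytene libraries below both leptotene/zygotene libraries. A run of 3 on chromosome 14, Olfr1509, Olfr1508 and Olfr1507, is the whole MOR244 family, the cluster long studied for the choice of a single receptor per neuron. Olfr1507, the receptor also called MOR28, had 1.02 and 0.413 CPM in pachytene and 4.86 and 1.60 CPM in leptotene/zygotene libraries. Olfr1508 stood at 1.83 and 1.51 CPM in pachytene against 5.35 and 2.30 CPM in leptotene/zygotene libraries. Olfr1509 stood at 0.203 and 0.275 CPM in pachytene against 2.43 and 1.80 CPM in leptotene/zygotene libraries. None of the 3 had a testis read. Pairs of neighbours were Olfr701 and Olfr702, Olfr303 and Olfr301, Olfr1393 and Olfr1392, and Olfr181 and Olfr183. Neighbours of a family can be close copies, and how the authors' counting split reads between them is not given in the sources used here.

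By receptor class, 36 of 961 class II rows were detected, or 3.75%, and 2 of 125 class I rows, or 1.60%. The class I receptors were Olfr78 and Olfr554. Olfr554 had 0.610 and 1.65 CPM in pachytene and 0.486 and 2.61 CPM in leptotene/zygotene libraries, and these overlapped. The 38 were 37 protein-coding genes and 1 transcribed pseudogene. In the annotation 6 of them overlap another gene: Olfr1507, Olfr1508 and Olfr1509 overlap Tcra, Olfr183 overlaps Olfr182-ps1, Olfr13 overlaps 1700024N05Rik and Olfr78 overlaps Olfr560. Some receptors besides Olfr20 lie directly beside a counted gene of another kind, such as Olfr31 beside Il3ra with 871 spermatocyte reads, Olfr1393 beside Mgat1 with 420 and Olfr19 beside 4933404G15Rik with 1437. Olfr1344 lies beside Smim17, which was not analysed here. The strand setting of the counting is not given in the sources used here, so reads of overlapping genes may be mixed.

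Olfr16, the receptor linked above with a response of sperm, had no read in any of the 10 libraries. Olfr62 had 0 and 3 reads in pachytene, 1 and 1 in leptotene/zygotene and 2 in all testis libraries. Both stayed below the 20 reads of the rule. At this depth a count of 0 allows up to 1.46 CPM in leptotene/zygotene replicate 1 and 0.301 CPM in replicate 2.

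Other chemoreceptor families gave few rows under the same limit of 20 reads. Of the vomeronasal receptors, which sense pheromones, 15 of 126 Vmn2r rows (11.9%) and 4 of 208 Vmn1r rows (1.92%) reached it. Of the taste receptors 2 of 3 Tas1r rows, the sweet and umami type, reached it, Tas1r1 alone with 814 reads, and none of 35 Tas2r rows, the bitter type, did. None of 15 Taar rows and none of 6 Fpr rows reached it. The olfactory receptors stood at 38 of 1122 rows (3.39%) beside 15060 of all 23366 gene rows (64.5%).

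Among the genes that carry the receptor signal in the nose, more fell than rose in leptotene/zygotene libraries against day 7 testis. Whole testis and a spermatocyte fraction differ in cell mix, and its part in the changes of this and the following lists was not tested. Of 18 transduction genes 17 were tested, and 5 rose and 10 fell (edgeR, adjusted p under 0.05), where 36.5% of all genes rose and 42% fell. The fall of the channel subunit Cngb1 lost its call in 8 of 16 other settings (edgeR adjusted p up to 0.113), and that of the G-protein subunit Gng13 by DESeq2 (adjusted p = 0.0944) and without leptotene/zygotene replicate 2 (edgeR adjusted p = 0.0839). The median log2 fold change was -1.52 over the list and -0.31 over all genes. The median over all genes was 0.01 with median-ratio and -0.70 with upper-quartile scaling, and changes are to be read against it. Adcy3, the cyclase of the olfactory cascade, fell to 2.43 and 6.31 CPM in leptotene/zygotene libraries, against 25.7 and 22.0 CPM at day 7, a log2 fold change of -2.27 ± 0.47 (SE; edgeR adjusted p = 0.00138). Gnal, the G protein, had 3.89 and 7.52 CPM in leptotene/zygotene and 3.09 and 4.79 CPM in day 7 libraries and did not pass (0.64 ± 0.45, edgeR adjusted p = 0.215). Cnga2, the pore subunit of the channel, had 0 and 1 reads in leptotene/zygotene and 12 and 14 reads at day 7. Its ratio was 0.110 (95% interval 0.00268 to 0.669), and its edgeR adjusted p was 0.0158, but 0.0862 by DESeq2 and 0.118 without leptotene/zygotene replicate 2. Omp, the marker of mature olfactory neurons, had 0 and 1 reads in leptotene/zygotene and 36 and 154 reads at day 7 (edgeR adjusted p = 0.00377, and 0.0893 without leptotene/zygotene replicate 2).

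Other genes of the cascade rose. The phosphodiesterases Pde1c and Pde4a, which break down cyclic nucleotides, rose in leptotene/zygotene against day 7 by log2 fold changes of 7.60 ± 0.34 and 4.89 ± 0.27 (SE; edgeR adjusted p = 2.99e-07 and 4.89e-07). Cnga4, a modulatory channel subunit, had 170 leptotene/zygotene and 3 day 7 reads, and Ano2, the chloride channel of the cascade, had 54 leptotene/zygotene reads and 1 day 7 read. Their ratios were 162 (95% interval 54.5 to 793) and 154 (26.6 to 6209). In pachytene against leptotene/zygotene none of the 17 rose and 1 fell, Pde4a, by a log2 fold change of -1.28 ± 0.24 (SE; edgeR adjusted p = 0.00554, and 0.0703 with the 2 spermatocyte stages alone in the fit). Of all genes tested 22.2% passed there, 9.03% rising and 13.2% falling. The list's median was -0.37 over the 14 genes with more than 3 reads in either stage, against -0.06 over all genes.

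Of 10 genes of the Rtp and Reep families, listed here under receptor transport, 9 were tested. In leptotene/zygotene against day 7, 4 rose and 3 fell, where 36.5% of all genes rose and 42% fell. The list's median log2 fold change was 0.44. Rtp1, a partner that olfactory receptors need at the membrane of sensory neurons, had 5 and 47 reads in leptotene/zygotene and 0 and 1 at day 7, a ratio of 149 (95% interval 25.5 to 5983). Rtp3 had 56 leptotene/zygotene reads and 1 day 7 read, a ratio of 160 (27.6 to 6434). Rtp2 was not tested, with 0 and 7 leptotene/zygotene reads and 1 at day 7. Reep6 rose by a log2 fold change of 7.74 ± 0.33 (SE; edgeR adjusted p = 2.99e-07), while Reep3 fell by 4.85 ± 0.79 and Reep1 by 3.58 ± 0.51 on the log2 scale (edgeR adjusted p = 0.000305 and 0.000129). In pachytene against leptotene/zygotene Reep6 alone changed, by -3.23 ± 0.27 (edgeR adjusted p = 0.000747), and the list's median was -0.30. Rtp1 had 1.63 and 1.79 CPM in pachytene and 2.43 and 4.71 CPM in leptotene/zygotene libraries (edgeR adjusted p = 0.204).

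Of 16 regulators of receptor choice in the nose, all tested, 6 rose and 8 fell in leptotene/zygotene against day 7. Their median log2 fold change was -0.90, and of all genes tested 36.5% rose and 42% fell. The fall of Atf5, one of the 8, lost its call in 3 of 16 other settings, median-ratio factors among them (edgeR adjusted p = 0.0548). The rise of Kdm1a, a histone demethylase, lost its call in 10 of 16 other settings (edgeR adjusted p up to 0.401). The largest changes were in Eif2ak3, the kinase PERK of the stress response that stabilises receptor choice, with -4.44 ± 0.42, and in Ehmt1, a histone H3 methyltransferase, with -4.33 ± 0.58 (edgeR adjusted p = 8.84e-06 and 8.42e-05). Ldb1, the bridging protein of receptor enhancers, and Ebf1, a factor that binds them, fell by 4.12 ± 0.31 and 3.92 ± 0.61 on the log2 scale (edgeR adjusted p = 1.99e-06 and 0.000223). Emx2, a homeobox factor, rose by 3.30 ± 0.36 (edgeR adjusted p = 2.06e-05), after a fall of -2.21 ± 0.35 in day 7 against day 3 testis (edgeR adjusted p = 0.0225). In pachytene against leptotene/zygotene 2 rose and 2 fell, where 9.03% of all genes tested rose and 13.2% fell. Lbr, the lamin B receptor, rose by 2.24 ± 0.27 (edgeR adjusted p = 0.00107) and Cbx5, a heterochromatin protein, by 1.35 ± 0.31 (edgeR adjusted p = 0.0140). Ebf2 and Lhx2, both factors of receptor enhancers, fell by 1.41 ± 0.43 and 1.30 ± 0.39 on the log2 scale (edgeR adjusted p = 0.0437 and 0.0408). The list's median there was -0.08.

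Genes of cAMP and calcium signalling in sperm had the highest median fold change of the 4 gene lists in leptotene/zygotene against day 7. Of 11 tested, 9 rose and none fell in leptotene/zygotene against day 7, where 36.5% of all genes rose and 42% fell. The list's median log2 fold change was 5.79. Adcy10, the soluble adenylyl cyclase of sperm, stood at 1061 and 1214 CPM in leptotene/zygotene and at 3.03 and 2.70 CPM at day 7 (log2 fold change 8.63 ± 1.27, SE; edgeR adjusted p = 0.000148). Catsper1, a pore subunit of the sperm calcium channel, had 224 and 376 CPM in leptotene/zygotene libraries and no read at day 7, which makes it at least 3438-fold higher against 3 reads over both day 7 libraries. Catsper2 and Catsper3 rose by 7.97 ± 0.46 and 9.66 ± 0.53 (SE; edgeR adjusted p = 5.80e-07 and 4.63e-07), and Catsper4 had 3077 leptotene/zygotene and 2 day 7 reads. In pachytene against leptotene/zygotene 5 of the 11 fell and none rose, with a median of -1.25, where 13.2% of all genes tested fell. Spermatid markers moved the same way, with 20 of 20 rising in leptotene/zygotene against day 7 (median log2 fold change 13.22) and 15 of 20 falling in pachytene against leptotene/zygotene (median -3.03), and their part in this list's changes was not tested. The rise of Hvcn1, the proton channel of sperm, in leptotene/zygotene against day 7 lost its call in 3 of 16 other settings (edgeR adjusted p up to 0.101). Prkar2a, a regulatory subunit of protein kinase A, fell by 3.17 ± 0.28 on the log2 scale in pachytene against leptotene/zygotene (edgeR adjusted p = 0.000747). The channel subunit Cnga3 fell there by 1.91 ± 0.47 (edgeR adjusted p = 0.0193). Catsper4, Catsper1 and Catsper3 fell in the same comparison by 1.62 ± 0.46, 1.49 ± 0.45 and 1.38 ± 0.33 (edgeR adjusted p = 0.0341, 0.0459 and 0.0181). Cnga1 fell by 4.02 ± 0.51 in day 7 against day 3 testis (edgeR adjusted p = 0.0112). No other gene of the 4 lists passed between testis stages by edgeR. Without either day 7 library no gene passed in day 7 against day 3, so the calls for Emx2 and Cnga1 rest on both.

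Of the 11 list genes called in pachytene against leptotene/zygotene, Lbr, Reep6 and Prkar2a passed under all 17 other settings. With the 2 spermatocyte stages alone in the fit the other 8 lost their calls (edgeR adjusted p between 0.0667 and 0.237). Cbx5 also lost its call without leptotene/zygotene replicate 2 (edgeR adjusted p = 0.0650) or without pachytene replicate 1 (0.0567), and Cnga3 without either pachytene library or either day 1 library (up to 0.0774). Catsper1, Catsper3 and Catsper4 lost theirs without leptotene/zygotene replicate 2 (edgeR adjusted p = 0.142, 0.105 and 0.194), without pachytene replicate 1 (0.150, 0.0761 and 0.147) and without any single day 1 or day 7 library. Ebf2 and Lhx2 lost theirs without leptotene/zygotene replicate 2 (edgeR adjusted p = 0.143 and 0.265) and without any single pachytene, day 1 or day 7 library. Ebf2 also lost its call with upper-quartile factors (edgeR adjusted p = 0.0667), with no filter (0.0546) and with the replicate block (0.0582), and Catsper1 with upper-quartile factors (0.0532). Catsper1 and Catsper3 also lost theirs without pachytene replicate 2, Ebf2 without leptotene/zygotene replicate 1, and Catsper4 and Lhx2 without either day 3 library.

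Markers of other cells moved with the fractions. The 11 markers of olfactory epithelium summed to 12.2 and 23.9 CPM in leptotene/zygotene libraries and 34.5 and 42.7 CPM at day 7, with 2 of them (Stoml3 and Ugt2a1) at 0 in leptotene/zygotene. In pachytene they summed to 9.97 and 20.9 CPM, and 7 were at 0, Omp, Cnga2, Stoml3 and Gng13 among them. The 9 Sertoli cell markers summed to 292 and 225 CPM in pachytene and 138 and 49.2 CPM in leptotene/zygotene libraries, against 3889 and 4002 CPM at day 7, and none was at 0. The 6 Leydig cell markers summed to 35.6 and 36.5 CPM in pachytene, 19.9 and 5.61 CPM in leptotene/zygotene and 366 and 549 CPM in day 7 libraries, and none was at 0. The 7 macrophage markers summed to 22.0 and 12.7 CPM in pachytene, 73.9 and 41.3 CPM in leptotene/zygotene and 99.1 and 122 CPM in day 7 libraries, with none at 0. C1qb alone gave 50.1 and 27.4 CPM of the leptotene/zygotene sums, and it rose in leptotene/zygotene against day 7 while 5 of the 7 fell, with a median log2 fold change of -2.76 (edgeR, adjusted p under 0.05). The 6 blood markers summed to between 2.64 and 10.9 CPM in all 10 libraries, with 4 at 0 in both fractions. Most of each sum came from Alas2, and Hba-a1 and Hba-a2 had no read in any of the 10 libraries, whole testis included. The 8 spermatogonia markers summed to 1604 and 1731 CPM in pachytene and 1385 and 2072 CPM in leptotene/zygotene libraries, against 329 and 279 CPM at day 7. Dmrtb1 alone gave 1557 and 1713 CPM of the pachytene sums and 1331 and 2039 CPM of the leptotene/zygotene sums. In leptotene/zygotene against day 7 Dmrtb1 rose and 5 of the 8 fell, namely Kit, Stra8, Zbtb16, Sohlh1 and Neurog3, which had no leptotene/zygotene read, and the list's median log2 fold change was -2.72 (edgeR, adjusted p under 0.05). The part of these cells in the receptor levels was not tested.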

How the data were processed

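RNA-seq of 10 libraries was used, 2 per stage, with the deposited table of raw read counts per gene. Per the submitters' processing notes HTSeq 0.6.1, BWA 0.7.8, edgeR 3.6.8 and Bowtie 0.12.7 were among the tools and mm9 was the build; which options were used to make the counts, strand included, is not given in the sources used here. The table's 5 summary categories, which held between 44.7% and 64.5% of a library's counts, entered neither the library sizes nor any test. The 10 small RNA libraries were not used here.

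The 38 receptors are the rows named Olfr and a number with 20 or more counts over the 4 spermatocyte libraries; these members and the gene lists were chosen with earlier results of these data known. CPM were scaled by trimmed-mean (TMM) factors over all 10 libraries. All 4 comparisons of neighbouring stages were fitted in 1 model with edgeR 4.0.16 (quasi-likelihood test, Benjamini-Hochberg adjustment, threshold 0.05) on the 16872 genes kept by filterByExpr at a minimum of 10 counts, with 5 residual degrees of freedom. The fit covered the receptors in every comparison, but their test results were set aside in the comparisons that use the libraries of the rule. The scripts were tested on simulated data. Levels were described for the 10 receptors with the highest spermatocyte mean, 3 rows on each side of the count of 20, up to 5 receptors in each direction between pachytene and leptotene/zygotene, those with 10 or more testis reads, Olfr16 and Olfr62. Of each list up to 5 genes past the test and a few fixed genes were named; genes named for a lost call, marker genes given with values, receptors and neighbours discussed for their position, family or class, and the testis rows Olfr1033, Olfr558 and Olfr920, were picked with their values in view. The listed gene Slc9a10 is not analysed here. Intervals on ratios are exact at the 95% level and floors are 3 reads, for counting error only. Alternatives were DESeq2 1.42.0, other scalings, no filter, fewer stages in the fit, the replicate number as a block and each library left out. Positions, receptor families and promoters come from RefSeq, GRCm38.p6, matched by symbol. Counts cannot show whether a receptor protein is made.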

Additional observations from a re-analysis of the deposited data

How the results depend on the processing

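The choice of receptors depended on the count limit and on the deepest spermatocyte library. With a minimum of 10 reads 64 receptor rows qualified and with 50 reads 12. A limit on scaled counts gave 39 rows, 35 of them among the 38. Leaving out 1 spermatocyte library gave between 14 (without leptotene/zygotene replicate 2) and 32 rows, and pachytene libraries alone, chosen after seeing the data, gave 8. The 21 rows of other chemoreceptor families became 9 with a minimum of 50 reads.

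Scaling moved the levels but not the order of the stages. With plain library sizes the summed level of the 38 receptors was 3.05 CPM at day 1, 2.73 CPM at day 3, 3.35 CPM at day 7 and 113 CPM in leptotene/zygotene libraries. With median-ratio factors it was 2.14 CPM at day 1 and 245 CPM in leptotene/zygotene, and with upper-quartile factors 2.53 CPM at day 1 and 184 CPM in leptotene/zygotene libraries. The median log2 ratio of pachytene to leptotene/zygotene over the 38 was -1.26 with plain library sizes. Over all rows with at least 20 spermatocyte reads it was 0.449 with plain library sizes and -0.11 with trimmed-mean factors. Without 1 of the 4 libraries the median of the 38 lay between -2.31 and -1.43. With plain library sizes 31 of the 38 had a lower pachytene mean and 7 a higher one. Both pachytene libraries lay below both leptotene/zygotene libraries for 23 of them. Of all rows with at least 20 spermatocyte reads 18.6% did so with plain library sizes and 30.2% with trimmed-mean factors.

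Olfr1372-ps1 and Olfr78, the receptors with testis tests given here, passed in neither testis comparison under the alternatives run. Genes called in day 3 against day 1 were 79 by DESeq2, 6 with only these stages in the fit, 10 with the testis stages alone (chosen after seeing the data) and between 0 and 36 without 1 library, the highest without day 3 replicate 2. In day 7 against day 3 they were 1026 by DESeq2, 437 with no filter, 1053 with only these stages, 2169 with the testis stages alone and between 0 and 619 without 1 library. The 0 came without either day 7 library, and 59, 57 and 83 came without day 1 replicate 1, day 1 replicate 2 and day 3 replicate 1. In pachytene against leptotene/zygotene, 3744 genes became 1011 with only these stages and between 2099 and 5066 without 1 library. With the replicate block the counts were 0, 267, 13207 and 3663 genes over the 4 comparisons in their order of time. Same-numbered libraries deviated together only in the spermatocyte stages, and with the replicate block in those stages alone, chosen after seeing the data, 7269 genes were called. The cause was not tested. Of the list genes called, 38 of 45 in leptotene/zygotene against day 7 kept their call under every alternative, as did 3 of 11 in pachytene against leptotene/zygotene, and none changed direction.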
